A study of Mus musculus with 48 samples.

Results

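Lysyl oxidase is the secreted copper enzyme that oxidises lysines of elastin and collagen so that these proteins cross-link into stable fibres. Its loss in newborn mice was examined here in the aorta, by comparing gene expression in Lox knockout (KO) and wild-type (WT) animals on postnatal day 1 (P1). These are 8 of the 48 arrays of a study of 3 mouse knockout models of elastic fibre formation, Eln, Efemp2 and Lox, and they were chosen by their sample labels. All 8 came from mice of the strain B6 albino. The ascending aorta (AA) and the descending aorta (DA) were each measured on 2 KO and 2 WT arrays, and each array carried RNA pooled from 8 aortas. The labels give neither the allele nor the sex of the mice, so the knockout is described by its name and by the Lox signal below.

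In the aorta, smooth muscle cells make layered sheets of elastin around birth, when blood pressure rises, and lysyl oxidase fixes these sheets and the collagen between them. Fibulins and microfibril proteins place elastin and the enzyme next to each other. Cells of the wall read the stiffness and strain of this matrix through integrins, and matricellular proteins of the thrombospondin and CCN families modulate that contact.

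Values are log2 array signals, so a difference of 1 is a doubling of signal, and signals are compared for a gene between arrays, never between genes. KO arrays were dimmer as a whole. The array median over all probe sets was 4.85 to 5.19 in KO and 5.21 to 5.35 in WT, and the median signal of olfactory and vomeronasal receptor genes, a measure of array background, was 2.65 to 2.95 in KO and 2.91 to 3.09 in WT. Every difference below is therefore KO less WT, less the median difference of all tested genes, which was -0.17 over both locations, -0.19 in AA and -0.15 in DA. Signals per array are given as deposited, before this shift. Errors are standard errors from limma with n = 4 arrays a side over both locations and n = 2 in 1 location, and adjusted p values are Benjamini-Hochberg values over 11511 tested genes. Nothing in the labels says that the 2 pools of a group came from separate litters. In such bulk RNA fewer cells of a type and less RNA per cell cannot be told apart. The labelled tissue was checked by its smooth muscle genes: all 21 measured contractile genes passed the filter on low signal, and Acta2, smooth muscle actin, was 12.35 to 12.75 on the 8 arrays.

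The Lox signal itself was lower in every KO array. In AA it was 11.41 and 11.48 in WT and 8.66 and 8.51 in KO. In DA it was 11.45 and 11.25 in WT and 8.71 and 8.38 in KO. The groups were far apart in both locations, and the signal fell by 2.66 ± 0.11 (adjusted p = 2.0e-11), 6.31-fold, with -2.67 in AA and -2.65 in DA. The signal left in KO lay above the 95th percentile of receptor genes on the same arrays, which was 4.69 to 5.07. Of the other lysyl oxidases, Loxl3 rose by 0.47 ± 0.10 (adjusted p = 0.0048). In a fit in which all 48 arrays of the study shared a spread per gene, Loxl3 did not pass (limma adjusted p = 0.19). Loxl1 differed by 0.29 ± 0.12 (adjusted p = 0.095) and Loxl4 by 0.01, and neither passed the test.

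Over both locations 1713 of the 11511 genes, 14.9%, passed an adjusted p of 0.05, with 906 higher (7.87%) and 807 lower (7.01%) in KO. Most differences were small, and 94 of these genes changed by more than 1 on the log2 scale. The gene lists below were chosen with earlier results of these data known. Of their 594 tested members 35.4% passed over both locations, so a list share above that of all genes is no independent support. In AA alone 591 genes passed, 5.13%, with 2.64% higher and 2.49% lower. In DA alone 561 passed, 4.87%, with 2.82% higher and 2.05% lower. How many genes pass depends on how the spread is estimated. When all 48 arrays of the study shared a spread per gene, 267 genes passed over both locations, 171 higher and 96 lower, and all 267 were among the 1713. These counts, out of 11511 genes, are the background for every list count from that fit below. Of 161 genes that passed and are named by the rule in the methods, 71 passed in that fit too. Leaving out 1 of the 8 arrays gave 1183 to 1565 genes.

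Matrix genes and genes of cell contact with it were among the largest rises. Col8a1, which encodes a network-forming collagen found in arteries, was 5.12 on both WT arrays of AA and 8.03 and 8.66 in KO. In DA it was 7.23 and 6.87 in WT and 9.74 and 9.18 in KO. KO arrays were higher in both locations without overlap, and the rise was 2.99 ± 0.17 (adjusted p = 5.3e-09), 7.93-fold. Igfbp2, which binds insulin-like growth factors, was 7.93 on both WT arrays of AA and 8.30 and 7.89 in WT of DA, and between 9.51 and 10.08 on the 4 KO arrays. Its rise of 1.98 ± 0.13 (adjusted p = 4.2e-08) was alike in AA (2.06) and DA (1.89). The collagen gene Col11a1, whose product sits within thin collagen fibrils, rose by 1.54 ± 0.13 (adjusted p = 4.8e-07), while Col1a1, the main fibrillar collagen of the wall, rose by 0.36 ± 0.10 (adjusted p = 0.020). Only these 2 of 10 tested fibrillar collagen genes passed, and Col3a1 differed by 0.19. In the fit to all 48 arrays Col11a1 was the 1 fibrillar collagen gene that passed, and Col1a1 did not (limma adjusted p = 0.72).

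**Figure D1:**
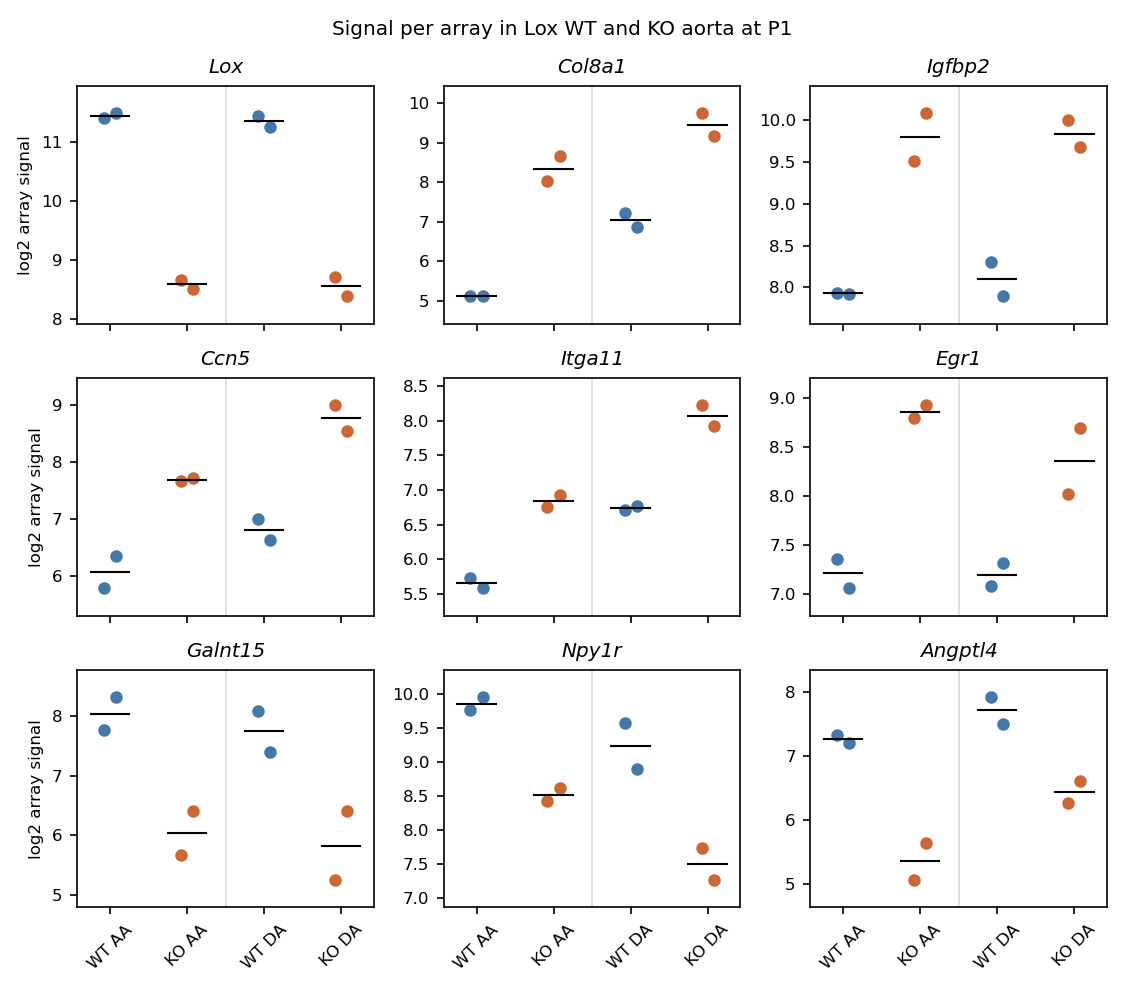
Deposited log2 signal of 9 genes on each of the 8 arrays (points, blue for WT and orange for KO), with the group mean as a bar, for AA on the left and DA on the right of each panel. Lox, Galnt15, Npy1r and Angptl4 lie lower and the other 5 genes lie higher in KO, with no overlap of KO and WT within a location. The share of all tested genes without overlap was not counted.

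Among 18 tested genes of matricellular proteins 7 rose and 1 fell, where 7.87% of all genes were higher and 7.01% lower. Ccn5, a growth-restraining member of the CCN family in smooth muscle, was 5.79 and 6.36 in WT and 7.66 and 7.72 in KO of AA, and had a mean of 6.81 in WT and 8.77 in KO of DA, without overlap. It rose by 1.96 ± 0.14 (adjusted p = 1.05e-07). Thbs1, thrombospondin 1, rose by 1.41 ± 0.14 (adjusted p = 4.5e-06), Ccn1 by 1.21 ± 0.15 and Ccn2 by 0.77 ± 0.11. With the spread of all 48 arrays 6 of the 7 rises passed. Of 17 tested integrin genes 5 rose and 0 fell, and 3 rose in the fit to all 48 arrays. Itga11, a subunit of a receptor for fibrillar collagen, was 5.73 and 5.58 in WT and 6.76 and 6.93 in KO of AA, and 6.71 and 6.77 in WT and 8.22 and 7.92 in KO of DA. It rose by 1.43 ± 0.11 (adjusted p = 1.3e-07), and Itga4, a fibronectin and Vcam1 receptor subunit, by 1.16 ± 0.13 (adjusted p = 1.4e-05).

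Several enzymes that prepare collagen for assembly rose. Of 18 tested collagen processing genes 6 rose and 0 fell, against 7.87% higher among all genes. The list median was 0.21, beside 0.20 for the fibrillar collagens, of which 10 of 10 lay above 0. P4ha1, a prolyl hydroxylase subunit, rose by 1.06 ± 0.11 (adjusted p = 4.7e-06) and Plod2, the lysyl hydroxylase that sets which cross-links collagen can form, by 0.86 ± 0.12 (adjusted p = 9.2e-05). P4ha3, P4ha2, Pcolce and the collagen chaperone gene Serpinh1 rose by 0.43 to 0.57. Of the 6 rises 3 passed in the fit to all 48 arrays. Of the 18 tested elastic fibre genes 4 rose and 0 fell, with a list median of 0.27. Eln, tropoelastin, was 11.99 to 12.27 on the 4 WT arrays and 12.21 to 12.42 on the KO arrays, which overlap before the shift is taken off. Its rise of 0.36 ± 0.10 (adjusted p = 0.026) was not called in 12 of 20 other settings. Ltbp2, a microfibril-associated protein, rose by 0.64 ± 0.10 (adjusted p = 4.5e-04), and Emilin1 and Adamtsl2 rose by 0.41 and 0.39. In the fit to all 48 arrays Ltbp2 was the 1 elastic fibre gene that passed.

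Matrix proteases and their inhibitors moved singly. Of 23 tested genes 5 rose and 1 fell, where 7.87% of all genes were higher and 7.01% lower. Adamts8, a secreted metalloprotease, was 5.97 to 6.08 on the WT arrays and 7.02 to 7.46 on the KO arrays, a rise of 1.35 ± 0.11 (adjusted p = 3.1e-07). Timp4, a metalloprotease inhibitor, was 9.01 to 9.41 in WT and 7.43 to 8.15 in KO, and it fell by 1.24 ± 0.12 (adjusted p = 3.8e-06). Of 19 genes of TGF-beta signalling 4 rose and 1 fell, among them the feedback inhibitors Skil (0.63), Pmepa1 (0.58) and Smad7 (0.49). None of these passed in the fit to all 48 arrays. Smooth muscle contractile genes had a median of 0.17, and 4 of 21 rose and 1 fell. With the spread of all 48 arrays 0 of the 21 passed, and leaving out 1 array gave 1 to 3 higher. Acta2 differed by 0.10 and Myh11, smooth muscle myosin, by 0.29, and neither passed.

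**Figure D2:**
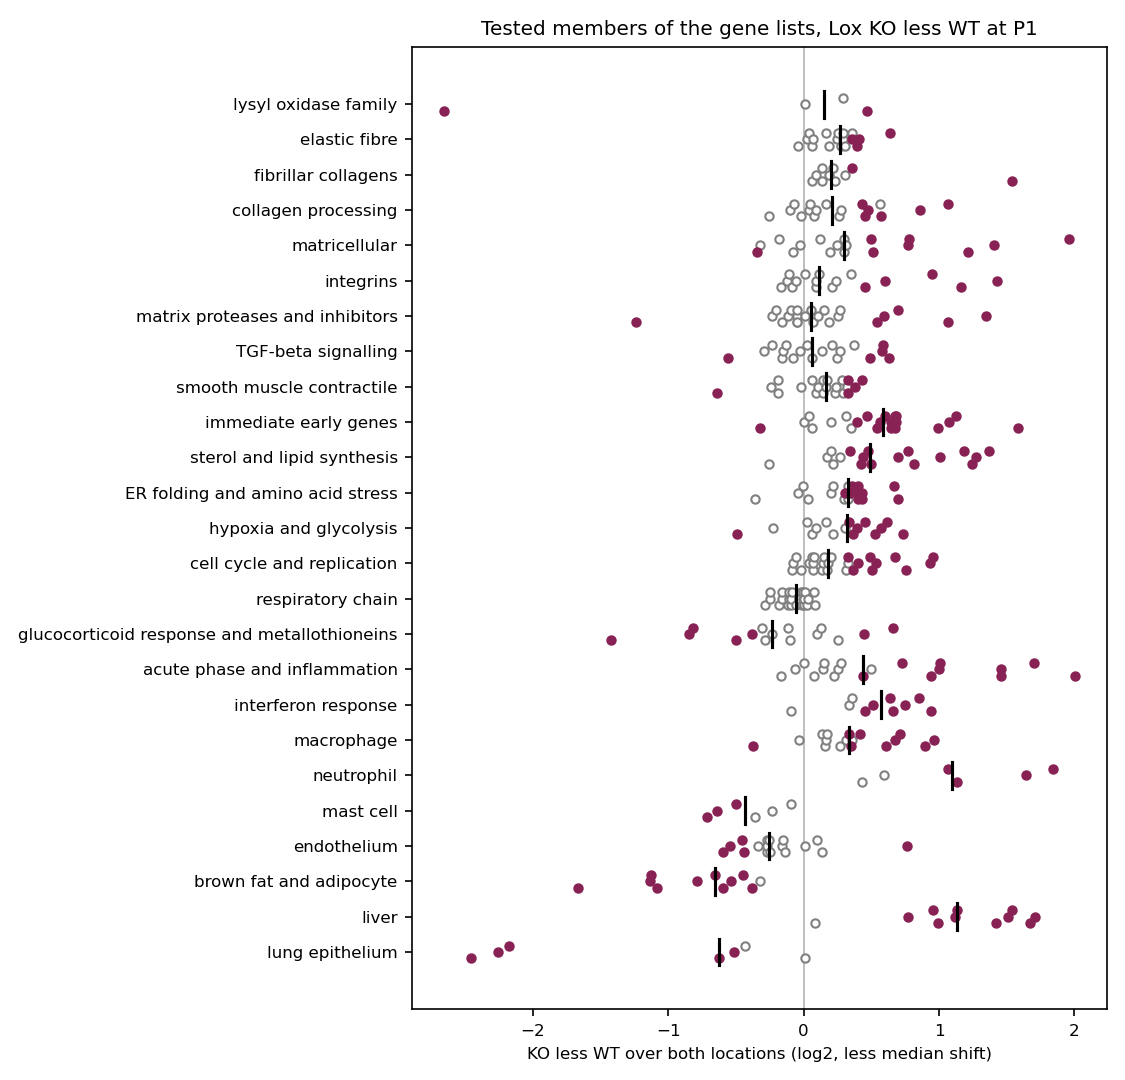
Difference KO less WT over both locations, less the median shift, for every tested member of 25 gene lists (filled points passed an adjusted p of 0.05, open points did not, the bar is the list median). The sterol, immediate early and interferon lists lie mostly to the right of 0, brown fat lies to the left, and 0 of 25 respiratory chain genes passed.

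Most tested genes of cholesterol synthesis rose. These enzymes are switched on together when the transcription factor Srebf2 is released from its anchor Insig1 in the endoplasmic reticulum. Of 18 tested sterol and lipid synthesis genes 13 rose and 0 fell, against 7.87% higher among all genes, with a median of 0.49. In the fit to all 48 arrays 8 rose, beside 171 of all 11511 genes. Sqle, squalene epoxidase, was 6.87 and 6.65 in WT and 7.66 and 8.02 in KO of AA, and 6.91 and 7.41 in WT and 8.45 and 8.48 in KO of DA. Its rise was 1.37 ± 0.13 (adjusted p = 1.7e-06). Fdps, which makes farnesyl diphosphate, rose by 1.27 ± 0.11, Cyp51, a sterol demethylase, by 1.24 ± 0.11, and Hmgcs1, which makes the precursor of mevalonate, by 1.18 ± 0.12, with adjusted p values of at most 3.7e-06. Insig1 rose by 1.01 ± 0.11 (adjusted p = 8.0e-06) and Srebf2 by 0.77 ± 0.11 (adjusted p = 1.6e-04). KO and WT did not overlap within a location for any of these 6 genes. The share of all tested genes with such a separation was not counted, so it describes these genes only. Fasn and Elovl6, genes of fatty acid synthesis, were among the 13 that rose, while Scd1, the desaturase of that pathway, differed by -0.26 and did not pass.

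The 250 bases before the start site are printed for 3 of these genes because their letters can be set beside the shared rise. They are RefSeq sequences of build GRCm38.p6, read 5′ to 3′ on the strand of the gene, at chr13:119690101-119690350, plus strand (Hmgcs1), chr5:4104698-4104947, minus strand (Cyp51) and chr5:28071162-28071411, plus strand (Insig1). Capitals mark a CCAAT box on either strand (CCAAT or ATTGG) and, in Hmgcs1, a sterol regulatory element (searched as TCACNCCAC on both strands).
Hmgcs1: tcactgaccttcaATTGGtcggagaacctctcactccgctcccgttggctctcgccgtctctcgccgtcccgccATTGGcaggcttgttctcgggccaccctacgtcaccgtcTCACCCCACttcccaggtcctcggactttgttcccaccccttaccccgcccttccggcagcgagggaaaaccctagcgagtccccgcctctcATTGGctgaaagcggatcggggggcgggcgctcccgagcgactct
Cyp51: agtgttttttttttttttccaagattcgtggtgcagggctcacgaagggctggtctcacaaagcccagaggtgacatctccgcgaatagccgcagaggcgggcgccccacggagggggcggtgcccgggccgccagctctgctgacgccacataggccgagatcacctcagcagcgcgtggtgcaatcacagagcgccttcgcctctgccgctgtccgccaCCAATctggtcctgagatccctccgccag
Insig1: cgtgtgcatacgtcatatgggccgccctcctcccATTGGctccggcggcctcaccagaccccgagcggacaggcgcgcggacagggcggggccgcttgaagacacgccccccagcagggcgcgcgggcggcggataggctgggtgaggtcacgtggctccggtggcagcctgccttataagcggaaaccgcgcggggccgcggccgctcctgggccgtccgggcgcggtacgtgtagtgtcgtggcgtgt
A window was at hand for 9 of the 13 genes that rose. A CCAAT box was in 8 of the 9, 88.9%, against 39.8% of the 9099 tested genes with a window, and the sterol element in 1 of the 9, 11.1%, against 1.20%. A match describes the letters and not a bound site.

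Immediate early genes, which are transcribed within minutes of a growth, stress or stretch stimulus, rose more in AA than in DA by their values. Of 22 tested genes 15 rose and 1, Klf4, fell over both locations, where 7.87% of all genes were higher and 7.01% lower. The fall of Klf4 was not called in the fit to all 48 arrays or with array background as a covariate. The list median was 0.79 in AA and 0.31 in DA. In these locations 13 and 5 genes rose, beside 2.64% and 2.82% of all genes. For 0 of the 22 did the difference between AA and DA pass the test. Egr1 was 7.36 and 7.06 in WT and 8.79 and 8.93 in KO of AA, and 7.08 and 7.31 in WT and 8.02 and 8.70 in KO of DA, a rise of 1.58 ± 0.14 (adjusted p = 1.7e-06). Ier3, a survival gene, rose by 1.13 ± 0.13, the nuclear receptor gene Nr4a1 by 1.08 ± 0.15, Myc by 0.68 ± 0.12 and Zfp36, which marks inflammatory mRNAs for decay, by 0.64 ± 0.11. With the spread of all 48 arrays 7 genes of the list rose. The 250 bases before the start of Zfp36 (chr7:28379229-28379478, minus strand) hold a CArG box, the motif bound by serum response factor, shown in capitals.
Zfp36: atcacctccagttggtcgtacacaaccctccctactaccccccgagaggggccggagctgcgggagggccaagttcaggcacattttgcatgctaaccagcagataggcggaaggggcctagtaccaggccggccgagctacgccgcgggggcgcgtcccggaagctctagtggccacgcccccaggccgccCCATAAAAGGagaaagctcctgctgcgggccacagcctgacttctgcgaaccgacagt
That motif was in 2 of the 12 risen genes of the list with a window, Zfp36 and Egr2, 16.7%, against 1.48% of tested genes with a window.

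Groups of protein folding, glucose use and DNA replication rose more mildly. Among all genes 7.87% were higher and 7.01% lower over both locations. Of 19 tested genes of endoplasmic reticulum folding and amino acid stress 10 rose and 0 fell, led by the chaperone gene Calr (0.70 ± 0.11, adjusted p = 2.8e-04), with Hspa5 at 0.40. The 10 included Psat1 of serine synthesis, while Ddit3 and Atf4, transcription factors of the stress response, differed by 0.03 and 0.33 and did not pass. Of 16 tested hypoxia and glycolysis genes 8 rose and 1 fell, with the glucose transporter gene Slc2a1 at 0.74 ± 0.11 (adjusted p = 2.9e-04). In the fit to all 48 arrays 1 folding gene and 2 hypoxia and glycolysis genes passed. Of 27 tested cell cycle genes 10 rose and 0 fell over both locations, and 5 rose in the fit to all 48 arrays. The list median was 0.05 in AA, with 4 higher, and 0.34 in DA, with 7 higher. Among all genes 2.64% were higher in AA and 2.82% in DA. The difference between locations passed for 0 of the 27. The 10 were genes of DNA replication and entry into it, led by the helicase subunits Mcm2 (0.95 ± 0.11, adjusted p = 2.8e-05) and Mcm5 (0.93 ± 0.13, adjusted p = 1.1e-04). Mitotic genes of the list did not pass, with Cdk1 at 0.07, Plk1 at 0.07 and Aurka at -0.05. None of the 25 tested respiratory chain genes passed.

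Several genes of inflammation rose, and so did markers of neutrophils and macrophages, while mast cell and lymphocyte markers did not. Ptgs2, the inducible prostaglandin synthase, was 5.23 and 5.63 in WT and 8.25 and 8.12 in KO of AA, and 5.12 on both WT arrays and 6.32 and 5.77 on the KO arrays of DA, a rise of 2.01 ± 0.25 (adjusted p = 3.7e-05). Of 19 tested acute phase and inflammation genes 9 rose and 0 fell, where 7.87% of all genes were higher and 7.01% lower. The monocyte chemokine gene Ccl7 was 7.35 and 6.63 in WT and 9.07 and 8.97 in KO of AA, and 7.19 and 7.36 in WT and 9.17 and 7.44 in KO of DA, so the second KO array of DA lay near WT. Its rise was 1.70 ± 0.27 (adjusted p = 3.7e-04). Of 10 tested interferon response genes 7 rose and 0 fell, with Isg15 at 0.94 ± 0.16 and Irf7 at 0.64 ± 0.11, and 1 passed in the fit to all 48 arrays. S100a8 and S100a9, which neutrophils hold in large amounts, rose by 1.84 ± 0.24 and 1.64 ± 0.21 (adjusted p = 6.2e-05 and 4.4e-05). The cystatin family genes Cstdc4 (2.25 ± 0.33), Stfa3 (1.93 ± 0.24) and Stfa2l1 (1.64 ± 0.25) were among the 15 largest rises. These genes are close copies of each other, and their probe sets may share targets. The neutrophil list rose in 4 of 6 tested genes, with a mean level over its 12 measured members of 5.20 to 5.90 on the WT arrays and 6.02 to 6.44 on the KO arrays, and 6 further measured members, among them Elane and Camp, were too dim to test. Of 17 macrophage genes 8 rose and 1, Cd163, fell, with Cx3cr1 at 0.90 ± 0.11 and Cd14 at 0.97 ± 0.13, while the complement genes C1qa, C1qb and C1qc differed by 0.16, -0.03 and 0.13 and did not pass. The mean macrophage level in DA was 7.93 and 8.13 in WT and 8.11 and 8.30 in KO, which overlap. Of the macrophage genes 3 rose and 0 fell in the fit to all 48 arrays. None of 5 tested lymphocyte and thymocyte genes passed, with a median of -0.23, and of 6 tested mast cell genes 3 fell and 0 rose, with a median of -0.43. The part of these cells in the inflammation values was not tested.

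Among the falls, Galnt15, an enzyme that starts sugar chains on secreted proteins, was 7.77 and 8.32 in WT and 5.67 and 6.40 in KO of AA, and 8.08 and 7.41 in WT and 5.25 and 6.41 in KO of DA. It fell by 1.79 ± 0.21 (adjusted p = 2.5e-05). Npy1r, a receptor for neuropeptide Y, a constricting transmitter of sympathetic nerves, was 8.90 to 9.95 in WT and 7.26 to 8.61 in KO and fell by 1.36 ± 0.15 (adjusted p = 8.6e-06). Kcnma1, the pore of the calcium-activated potassium channel that relaxes smooth muscle, fell by 1.22 ± 0.12 (adjusted p = 3.7e-06), while Kcnmb1, the subunit that tunes that channel, rose by 0.43 ± 0.11 (adjusted p = 0.014). Fmo4 (-1.40), Fam107a (-1.27), Tecrl (-1.27) and Rbp7 (-1.22), a retinol binding protein gene, were among the 15 largest falls named by the rule too. Of 15 tested genes of the glucocorticoid response and metallothioneins 5 fell and 2 rose, with a median of -0.23. Among all genes 7.01% were lower and 7.87% higher. The falls were Angptl4, an inhibitor of lipoprotein lipase (-1.42 ± 0.15, adjusted p = 8.7e-06), the transcription factor genes Zbtb16 (-0.85 ± 0.14) and Klf9 (-0.50), Pdk4 (-0.82 ± 0.13), which restrains glucose oxidation, and Fkbp5 (-0.38). Mt2, a metallothionein, rose by 0.66 and Errfi1 by 0.45. In the fit to all 48 arrays 3 of the falls passed.

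A miRNA gene chosen after its values were seen, Mir99a, was 7.72 and 8.20 in WT and 6.34 and 6.29 in KO of AA, and 8.03 and 8.17 in WT and 5.85 and 5.98 in KO of DA. It fell by 1.74 ± 0.13 (adjusted p = 1.3e-07), with no overlap of KO and WT. Its adjusted p was the lowest among the 80 tested miRNA genes with an entry in the RefSeq table used here. Of these 80, 2 were higher and 6 lower, where 7.87% of all genes were higher and 7.01% lower. The falls thus lay near the share among all genes. Outside those 80, Mir145a fell by 1.30 ± 0.16 (adjusted p = 3.7e-05) and Mir143 by 1.27 ± 0.20 (adjusted p = 4.3e-04), and both are miRNA genes typical of smooth muscle. They too were chosen after their values were seen, and the miRNA genes outside the 80 were not counted. Their falls thus describe these genes only, and their result in the fit to all 48 arrays is not given here. The Mir99a probe set reads RNA of the gene and not the mature miRNA alone. In the fit to all 48 arrays the standard error of the Mir99a difference was 0.56, above the 0.13 of the 8 arrays. Whether Mir99a passed in that fit is not given here. The mature 5p form (chr16:77598940-77598961 of GRCm38.p6, plus strand) is shown with its seed, bases 2 to 8, in capitals.
miR-99a-5p: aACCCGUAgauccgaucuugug

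Several markers of brown fat around the aorta and of the endothelium of its wall moved with genotype. Brown fat lines the thoracic aorta. Of 11 tested brown fat and adipocyte genes 10 fell and 0 rose, against 7.01% lower among all genes, and the list median was -0.65. Its mean level was 6.87 and 7.33 in WT and 6.24 and 6.21 in KO of AA, and 8.08 and 7.77 in WT and 6.91 and 7.22 in KO of DA. Ucp1, the uncoupling protein of brown fat, was 4.91 and 6.83 in WT and 4.77 and 4.25 in KO of AA, and 9.23 and 7.91 in WT and 5.94 and 6.56 in KO of DA. It fell by 1.67 ± 0.32 (adjusted p = 0.0020), and Cidea by 1.13 ± 0.14 (adjusted p = 3.7e-05). With the spread of all 48 arrays 0 of the 11 passed. Of 17 endothelial genes 4 fell and 1 rose, where 7.01% of all genes were lower and 7.87% higher. Kdr and Flt1, the 2 main receptors for Vegf, went opposite ways, with Kdr at -0.59 ± 0.10 (adjusted p = 7.05e-04) and Flt1 at 0.76 ± 0.13 (adjusted p = 6.2e-04), and Pecam1 differed by -0.26 and did not pass. With all 48 arrays Flt1 alone passed.

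**Figure D3:**
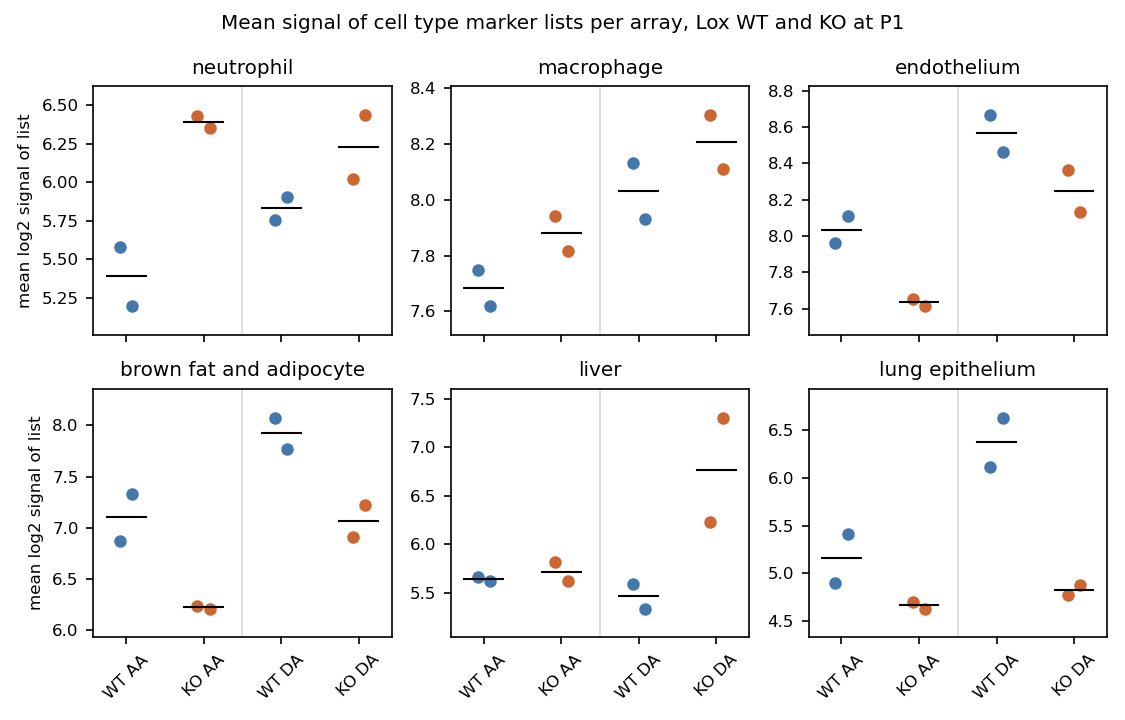
Mean deposited log2 signal of the measured members of 6 cell type lists on each array (points, blue for WT and orange for KO), with the group mean as a bar. The liver list was highest on the 2 KO arrays of DA (6.23 and 7.31), and the lung list on the 2 WT arrays of DA (6.12 and 6.64).

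Genes of lung and liver were high on some arrays, by lists written after the values were seen. Of 7 tested lung epithelial genes 5 fell, against 7.01% lower among all genes. Sftpc, surfactant protein C of alveolar cells, was 8.60 and 10.13 on the WT arrays of DA and 4.27 to 4.99 on the other 6 arrays. Its difference was -4.45 in DA (adjusted p = 2.5e-10) and -0.06 in AA (adjusted p = 0.95). Scgb1a1, a secretoglobin of airway cells, was 8.23, 8.11 and 7.14 on WT AA replicate 2 and both WT DA arrays, 4.68 on WT AA replicate 1 and 3.90 to 4.65 on the KO arrays. It fell by 2.46 ± 0.46 (adjusted p = 0.0015), as did Scgb3a1 (-2.22) and Scgb3a2 (-2.17), and these are 3 of the 15 largest falls, with Sftpc (-2.26) as the fourth. Of 11 tested liver genes 10 rose, against 7.87% higher among all genes, with a list median of 0.37 in AA and 2.05 in DA. Afp, alpha-fetoprotein, was 5.27 to 6.34 on the WT arrays, 6.51 and 6.16 in KO of AA, and 7.43 and 8.71 in KO of DA. Alb, albumin, rose by 1.54 ± 0.22 (adjusted p = 1.7e-04), and Fgg and Fgb, chains of fibrinogen, by 1.71 ± 0.35 and 1.67 ± 0.26. Without KO DA replicate 2 the liver median over both locations was 0.68 in place of 1.13, and without WT DA replicate 2 the number higher was 5. With the spread of all 48 arrays 2 of the 11 passed. Whether tissue taken along with the aorta has a part in these values was not tested.

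AA and DA were then compared. Across the 11511 genes the AA and DA differences correlated at r = 0.68, where genes are not independent replicates. Of the 304 genes higher in AA 151 were also higher in DA, 49.7% of the AA set and 46.5% of the 325 in the DA set. Of the 287 lower in AA 112 were also lower in DA, 39.0% and 47.5% of the 236. In opposite directions 1 gene was called. The difference between locations passed the test for 17 genes, 0.148%. For 12, 0.104%, the difference AA less DA was above 0, led by Sftpc (4.39 ± 0.40) and the cystatin gene Csta3 (3.37 ± 0.34, adjusted p = 4.3e-06), which was 5.09 and 4.13 in WT and 7.93 and 8.29 in KO of AA, and 5.40 and 5.95 in WT and 5.55 and 6.16 in KO of DA. Ptgs2 (1.88 ± 0.26, adjusted p = 4.1e-04) followed the same order. For 5 genes, 0.0434%, it was below 0, led by the liver genes Serpina1d (-2.34 ± 0.32) and Afp (-2.16 ± 0.39). Of the 17, 4 belong to the liver list, 2 to the lung list and 2 each to the neutrophil and platelet lists. With each array centred on its median, after cyclic loess or quantile normalization of the 8 arrays, and in the fit to all 48 arrays, 0 of these differences passed.

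**Figure D4:**
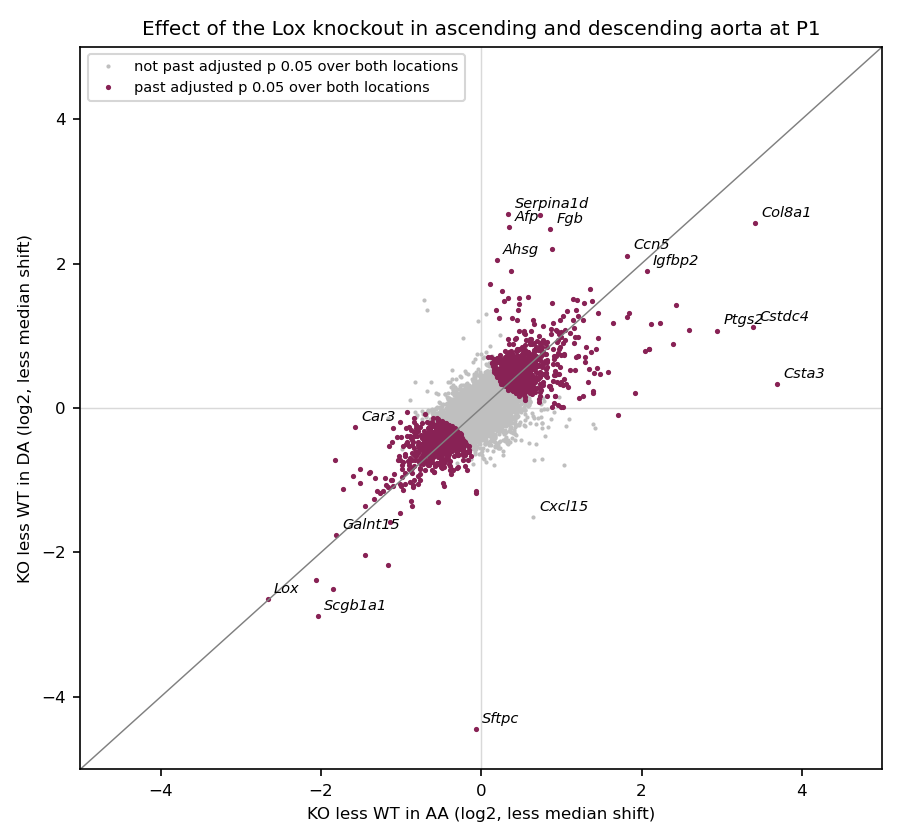
Difference KO less WT in AA (x axis) against DA (y axis) for 11511 tested genes, each less its median shift, in log2 units, with the line of equal effects. Coloured genes passed an adjusted p of 0.05 over both locations. Most lie near the line, while Sftpc, Csta3 and the liver genes Serpina1d and Afp lie far from it.

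The rise of sterol genes was set against the other experiments of the study, each of 4 KO and 4 WT arrays with WT arrays of its own: Lox KO on embryonic day 17.5 (E17.5), and Eln KO and Efemp2 KO at P1. These differences come from the fit to all 48 arrays. Stage, or model and strain (C57BL/6 in the Eln and Efemp2 mice), cannot be told apart from the set of arrays it was measured on. Sqle differed by 1.37 in Lox KO at P1, -0.03 at E17.5, 0.31 in Eln KO and 0.40 in Efemp2 KO. Cyp51 differed by 1.24, 0.08, 0.21 and 0.68 in the same order. The effect at P1 was higher than at E17.5 by 1.39 ± 0.28 for Sqle (adjusted p = 0.031), 1.17 ± 0.25 for Cyp51 (adjusted p = 0.041) and 1.12 for Fdps (adjusted p = 0.041), 3 of the 18 tested sterol genes against 0.0869% of all genes. Msmo1, a sterol demethylase gene outside that list, was higher by 1.36 ± 0.27 (adjusted p = 0.031). Against Eln KO 4 of the 18 were higher, 0.695% of all genes being so, and against Efemp2 KO 0. The sterol genes were taken up here for their rise at P1. That rise is part of each of these differences, so the shares lean towards higher values by selection. In all 14 genes passed against E17.5, 0.122%, 4 of them lower (0.0347%), and the lowest was Galnt15, which differed by -1.79 at P1 and -0.03 at E17.5. This count fell to 0 without any 1 of 6 of the 8 arrays, to 6 without WT AA replicate 1 and to 5 without KO DA replicate 2.

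**Figure D5:**
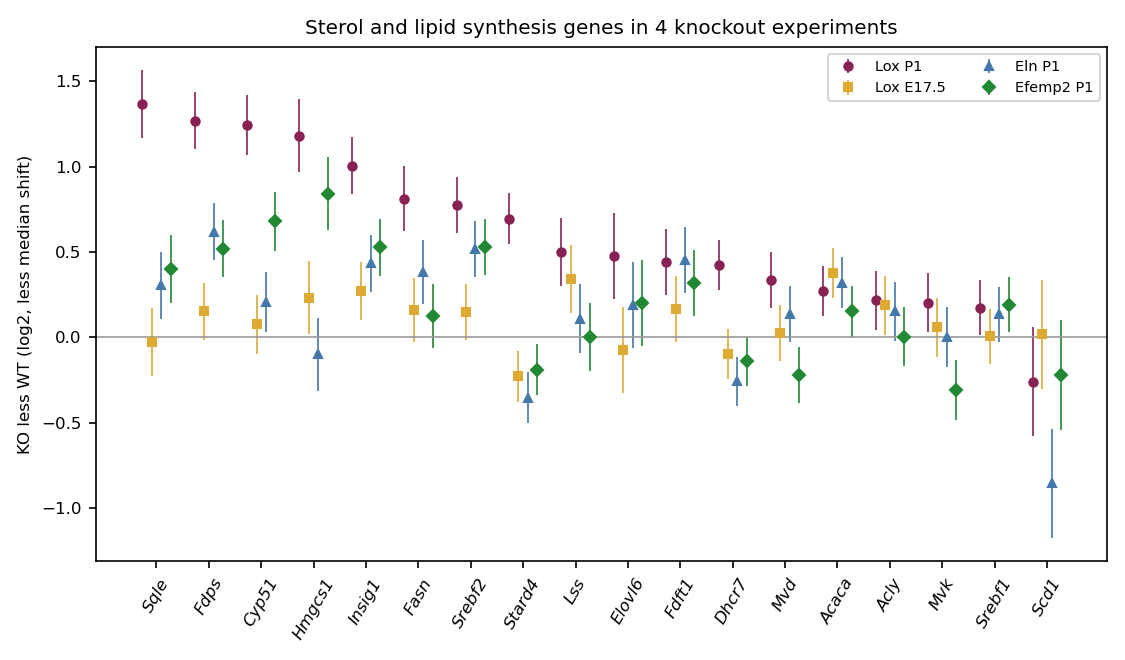
Difference KO less WT (log2, less the median shift) of 18 sterol and lipid synthesis genes in 4 experiments, from the fit to all 48 arrays, with standard errors as bars. Sqle, Fdps, Cyp51, Hmgcs1 and Insig1 lie at 1.01 to 1.37 in Lox KO at P1 and between -0.03 and 0.27 in Lox KO at E17.5.

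Several glucocorticoid response genes differed from the other models at P1. Zbtb16 fell in Lox KO and differed by 1.13 in Eln KO and 0.67 in Efemp2 KO, so that the Lox effect less the Eln effect was -1.98 ± 0.24 (adjusted p = 1.3e-05) and less the Efemp2 effect -1.53 ± 0.24 (adjusted p = 0.0011). Of the 15 tested genes of the list 5 were lower than in Eln KO, where 0.678% of all genes were, and 3 lower than in Efemp2 KO, where 0.191% were. The falls of this list in Lox KO, given above, are part of both differences. In all, 158 genes, 1.37%, passed against Eln KO and 33, 0.287%, against Efemp2 KO. Col8a1 differed by 2.99 in Lox KO, 1.94 in Eln KO and 3.28 in Efemp2 KO, and neither difference of effects passed (1.05 and -0.29). Ccn5 was higher in Lox KO than in Efemp2 KO by 1.46 (adjusted p = 0.034), and Mcm2 was higher than in both, by 1.12 each (adjusted p = 0.0012 and 0.0011). Lox itself differed by 0.69 in Eln KO and 0.65 in Efemp2 KO, and neither passed. Eln differed by -5.99 in Eln KO, the model named for it. With arrays of both experiments only, 71 genes passed against Eln KO and 12 against Efemp2 KO.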

How the data were processed

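RNA pooled from 8 aortas per array was amplified from 5 ng and biotin-labelled, per the labels' protocols. The values are log2 signals as deposited by the authors; the submitters' processing notes name RMA and Affymetrix Expression Console; array name, tool versions and build are not given in the sources used here. Of 41345 probe sets, 23521 carry 1 symbol in GEO's annotation; 16010 without a symbol and 1814 with several were left out of the gene tests. Each gene took its probe set of highest mean, and 11511 genes with a mean of at least 5.58 in AA or DA were tested. limma 3.58.1 (R 4.3.3, statmod 1.5.0) fitted genotype with location as a factor to 8 arrays, with the median difference taken off before the moderated test, and Benjamini-Hochberg adjustment at 0.05. Single locations came from a fit of 4 group means, and other experiments from 24 group means of 48 arrays. The fits were tested on simulated data. Named genes were Lox, the 15 largest rises and falls over both locations with 1 sign in AA and DA, up to 5 each way for each other comparison, and all members of lists of up to 8 genes or else the 5 tested with smallest p, skipping predicted genes, receptors and small RNAs. Members and lists were chosen with earlier results of these data known. The liver and lung lists, the miRNA genes and further list members were chosen after their values were seen. P values measure the spread between pooled arrays, which may be technical. Alternatives were other filters, scalings, spreads, a background covariate, a replicate block and leaving out each array.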

Additional observations from a re-analysis of the deposited data

Results flagged for a closer look

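The effect of the knockout differed between AA and DA, by the test of the difference, for the genes that follow, given as AA less DA. It was above 0 for Sftpc (4.39), Csta3 (3.37), Cstdc4 (2.27), Cxcl15 (2.17), a lung chemokine gene, and Ptgs2 (1.88), with adjusted p values from 9.2e-07 to 0.0075. It was below 0 for the liver genes Serpina1d (-2.34), Afp (-2.16), Ahsg (-1.85) and Fgb (-1.60) and for Car3 (-1.30), with adjusted p values from 4.1e-04 to 0.041. All 10 calls were lost with each array centred on its median and after cyclic loess or quantile normalization of the 8 arrays. They were lost in the fit to all 48 arrays too. Tcf21 (0.80, adjusted p = 0.29) and Treml1 (0.80, adjusted p = 0.22) lay, after the median shift, above WT on both KO arrays of AA and below WT on both KO arrays of DA, and their difference did not pass the test.

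Against Lox KO at E17.5, the effect at P1 was higher for Ndufa4l2 (1.62), Sqle (1.39), Angptl1 (1.37), Msmo1 (1.36) and Cyp51 (1.17), and lower for Galnt15 (-1.76), Il31ra (-1.25), Mustn1 (-1.06) and Pik3ip1 (-0.99), with adjusted p values of 0.031 to 0.041.

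Against Eln KO at P1 it was higher for Eln (6.35), the gene knocked out there, and for the liver genes Fgb (2.80), Afp (2.80), Alb (2.71) and Ahsg (2.43). It was lower for Lox (-3.35), the gene knocked out here, Fam107a (-2.23), Hapln1 (-2.20), Hectd2 (-2.08) and Trp53inp1 (-2.03). Adjusted p values ran from 2.6e-11 to 0.043.

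Against Efemp2 KO at P1 it was higher for Ccn5 (1.46), Tnfrsf11b (1.43), Ndnf (1.22), Mcm2 (1.12) and Spon2 (1.07), and lower for Lox (-3.31), Galnt15 (-2.04), Cd109 (-1.81), Xdh (-1.62) and Zbtb16 (-1.53). Adjusted p values ran from 2.3e-07 to 0.034.

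Among probe sets with no single gene name, which no comparison above uses, 6265 of 17824 were tested, and 43 were higher and 12 lower in KO.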

How the results depend on the processing

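No named gene's called difference changed sign under a setting tried, while the balance of higher and lower calls did turn. Over both locations 1713 genes became 3604 without the median shift (393 higher, 3211 lower), 2585 after quantile normalization, 267 with all 48 arrays and 389 with array background as a covariate (183 higher, 206 lower), and 1183 to 1565 when 1 array was left out. In AA 591 became 354 with no filter, 1543 without the shift (185 higher, 1358 lower), 56 with all 48 arrays and 299 with the covariate (130 higher, 169 lower), and 335 to 605 with 1 array left out, the fewest without WT AA replicate 2. In DA 561 became 247 with no filter, 1056 without the shift (187 higher, 869 lower), 891 after quantile normalization 38 with all 48 arrays and 396 with the covariate (191 higher, 205 lower), and 129 to 741 with 1 array left out, with 129 without KO DA replicate 1 and 134 without WT DA replicate 1. For AA less DA, 17 became 7 with no filter, 65 with the covariate and 0 with arrays centred, after cyclic loess, after quantile normalization and with all 48 arrays, and 5 to 66 with 1 array left out, with 10 higher and 14 lower without KO DA replicate 1. Against E17.5, 14 became 0 with no filter and 22 without the shift (1 higher, 21 lower), and 0 to 6 with 1 array left out. Against Eln KO, 158 became 261 with no filter, 1701 without the shift (58 higher, 1643 lower), 243 after cyclic loess and 71 with both experiments only, and 62 to 115 with 1 array left out. Against Efemp2 KO, 33 became 52, 1068 (7 higher, 1061 lower), 57 and 12 under those 4 settings, and 11 to 23 with 1 array left out. The cause of these moves was not tested.

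With the replicate number as a block, the counts were 1845 over both locations, 704 in AA, 646 in DA, 28 for AA less DA, 11 against E17.5, 162 against Eln KO and 31 against Efemp2 KO. With it as a random block they were 1645, 572, 518 and 17 for the first 4. Deviations of same-numbered arrays correlated from -0.13 to 0.17, so the numbers were not read as pairs. Of 161 named genes called over both locations, 46 were called under every setting tried and 115 were lost under at least 1. Of 939 recomputed list medians 65 moved, 28 of them without the median shift. The number of arrays, 2 a group, limits the precision.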

Other observations

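Of 14 tested genes of the insulin-like growth factor system 3 rose and 3 fell over both locations. Of all genes 7.87% were higher and 7.01% lower. Besides Igfbp2, the growth factor gene Igf2 rose by 0.36 ± 0.11 (adjusted p = 0.032 in limma) and the binding protein gene Igfbp1 by 0.82 ± 0.16 (adjusted p = 0.0017). Pappa, a protease that frees the growth factors from their binding proteins, fell by 0.70 ± 0.15 (adjusted p = 0.0036), and its inhibitors Stc2 and Stc1 fell by 0.58 and 0.48. Igfbp2 alone of these 6 passed when all 48 arrays gave the spread.

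Of 10 tested genes of retinoic acid handling 4 rose and 0 fell, where 7.87% of all genes were higher and 7.01% lower. They were Crabp2 (0.53), which carries retinoic acid, Aldh1a2 (0.41), which makes it, Rdh10 (0.45), which makes its precursor, and Dhrs3 (0.41), which turns that precursor back to retinol. Of 7 tested platelet genes 3 rose, Ppbp (0.80), F13a1 (0.64) and Itgb3 (0.60), and the list median was 0.62 in AA and -0.10 in DA. Of 13 tested heart muscle genes 2 fell, Ryr2 (-0.56) and Myl3 (-0.49), where 7.01% of all genes were lower. No gene of these 3 lists passed when all 48 arrays gave the spread.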
